A study of Drosophila melanogaster with 3 samples.

Results

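The genes of mitochondrial ribosomal proteins were examined for Ets65A peaks at their promoters in whole Drosophila melanogaster embryos. Members were the protein-coding genes named mRpL (large subunit) or mRpS (small subunit) followed by a digit, of which there were 73 among 13945 protein-coding genes, 47 for the large and 26 for the small subunit. The other 13872 protein-coding genes served as the comparison. Ets65A belongs to the ETS transcription factors, which recognise DNA with a GGAA core. All embryos were 0 to 24 h old, of mixed sex, from a transgenic line (strain name ets3-GFP) with an eGFP tag at the C-terminus of Ets65A, and formed 1 group of 3 biological replicates with 1 technical replicate each. Chromatin was sheared by sonication to 200 to 800 bp and precipitated with an anti-GFP antibody, although the antibody field of the labels names Ets65A itself. No other genotype, treatment or age was examined. Whole embryos over this age range mix tissues and stages, and the sources used here do not give the regulatory sequences that drive the tagged copy.

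Mitochondrial ribosomes translate the few proteins encoded in mitochondrial DNA, which are core subunits of the oxidative phosphorylation complexes. Their RNAs come from the mitochondrial genome, but their proteins are encoded in the nucleus and imported, and many have counterparts in bacterial ribosomes while others were added in the mitochondrial lineage. Compact housekeeping genes of this kind in flies often lie head to head with another gene, so that a single stretch of DNA holds the start sites of both.

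The authors' lists held 2780 peaks that passed a test of replicate reproducibility (the irreproducible discovery rate, IDR), 28940 peaks from the pooled replicates and 30000 peaks from each replicate. Each peak carried the authors' signal value, a score of enrichment on a scale that is not stated, so peaks were compared within a list by value and between lists by rank, with rank 1 for the highest signal. A gene was counted as bound when the summit of an IDR peak lay within 500 bp of any of its transcription start sites (TSSs), and its strongest such peak was described. Pooled signal values of IDR peaks ran from 71.8 to 1498. Of the 20 peaks at bound mRp genes, 15 were 390 bp wide with the summit at the midpoint, as were most others in the list (82.1% of IDR peaks had this width), so positions within a promoter are coarse. Peak lists hold no reads, so the sequencing depth is unknown.

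An IDR summit lay within 500 bp of a TSS of 20 of the 73 mRp genes (27.4%, Wilson 95% interval 18.5 to 38.6%), against 15.7% of the other genes (15.1 to 16.3%) and 15.8% of all protein-coding genes. These intervals cover counting error over genes only. The share fell to 17.8% (other genes 11.7%) when replicate 1 was left out and peaks had to be among the strongest in both other replicates, and to 12.3% (8.60%) with the 1390 strongest IDR peaks. Most of the excess over other genes went together with gene arrangement: 53 of the 73 mRp genes (72.6%) had a divergent neighbour, a gene on the opposite strand with a TSS within 500 bp, against 27.6% of other genes. Among genes with such a neighbour, 35.8% of mRp genes and 33.2% of other genes were bound, so the shares lay close together. The 4 strongest peaks at mRp genes, at mRpS23, mRpL41, mRpL23 and mRpS10, stood far above the other 16 in every replicate.

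The sequences under the peaks of mRpS23 and mRpS10 are shown because they had the highest signal values among the members whose summit could be printed, and neither holds, within 100 bp of the summit, any of the 7 short motifs counted below. Both are on the forward strand of the RefSeq Release 6 assembly (dm6), reach up to 75 bp from the summit on each side and stop where an annotated untranslated region begins. Capitals mark the 11 bases centred on the summit.
mRpS23 peak, chr2L:13835375-13835525: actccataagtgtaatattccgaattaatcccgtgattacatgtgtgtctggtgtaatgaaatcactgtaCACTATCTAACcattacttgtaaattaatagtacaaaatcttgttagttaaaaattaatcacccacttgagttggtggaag
mRpS10 peak, chr3R:15229421-15229571: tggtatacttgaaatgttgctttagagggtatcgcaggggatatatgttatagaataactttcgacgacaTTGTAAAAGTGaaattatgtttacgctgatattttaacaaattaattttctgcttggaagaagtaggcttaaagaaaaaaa
The peaks of mRpS2, mRpL1, mRpS6 and mRpS11 are shown because a counted motif lay close to the summit. Capitals mark the motif: CCGGAA on both strands at mRpS2, and ACACTG on either strand at mRpL1, mRpS6 and mRpS11.
mRpS2 peak, chr2L:4850541-4850640: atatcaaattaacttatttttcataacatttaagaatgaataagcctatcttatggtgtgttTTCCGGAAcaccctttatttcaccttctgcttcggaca
mRpL1 peak, chr3R:8301322-8301439: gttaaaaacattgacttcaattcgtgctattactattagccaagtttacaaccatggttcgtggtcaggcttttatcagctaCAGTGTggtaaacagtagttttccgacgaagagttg
mRpS6 peak, chr3L:4364415-4364549: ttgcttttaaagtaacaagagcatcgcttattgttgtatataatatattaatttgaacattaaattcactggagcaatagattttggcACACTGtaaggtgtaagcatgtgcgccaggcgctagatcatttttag
mRpS11 peak, chr3R:17072676-17072731: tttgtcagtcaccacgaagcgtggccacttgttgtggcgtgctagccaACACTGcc
The regions just upstream of mRpL10 and mRpL16 are shown as contrasts. Both genes carry the DNA replication-related element (DRE, TATCGATA, in capitals) before their TSS, had a summit in the pooled list and had none in the IDR list.
mRpL10 upstream region, chr2L:203629-203778: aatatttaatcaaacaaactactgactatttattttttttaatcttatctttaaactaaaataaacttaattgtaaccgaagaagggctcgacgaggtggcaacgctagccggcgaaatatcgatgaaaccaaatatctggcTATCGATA
mRpL16 upstream region, chrX:1890106-1890255: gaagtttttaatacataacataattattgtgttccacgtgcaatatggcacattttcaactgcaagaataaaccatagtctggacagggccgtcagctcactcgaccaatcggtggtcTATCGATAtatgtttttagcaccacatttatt

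Among the small-subunit genes, 7 of 26 were bound (26.9%, 13.7 to 46.1%). At mRpS23, whose product has no bacterial counterpart, the signal value was 185, 312 and 284 in replicates 1, 2 and 3, at ranks 27, 12 and 8 of their lists, and 781 at rank 12 of the pooled list. Its summit lay 378 bp upstream of its own TSS but 114 bp from that of CenG1A, a GTPase-activating protein for Arf proteins. At mRpS10, the homologue of bacterial S10, the signal value was 146, 216 and 229, at ranks 54, 36 and 16, and 594 at pooled rank 31. A further IDR summit lay within 500 bp of the same gene, which made mRpS10 the 1 member with 2 IDR peaks. Its strongest summit lay 169 bp upstream of its own TSS and 88 bp from that of Art3, a protein arginine methyltransferase. The peaks of mRpS23 and mRpS10 were in the top 54 of every replicate.

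The next small-subunit peak was weaker by a wide margin. At mRpS2, the homologue of bacterial S2, the signal value was 50.5, 90.2 and 57.1, at ranks 512, 315 and 645, and 200 at pooled rank 424. Its summit was 25 bp from the TSS of Mon1, part of the complex that activates the endosomal GTPase Rab7, and 197 bp from its own. The remaining 4 were mRpS16 with a pooled signal value of 106, mRpS6 with 88.5, mRpS11 with 84.3 and mRpS7 with 73.1, all homologues of the bacterial proteins of the same number. Their neighbours are the zinc-finger gene cg, the F-BAR protein gene Cip4, the nucleostemin gene Ns1 and the cell-cycle kinase gene Cdk1. The peak of mRpS7 was the weakest at any bound member, just above the lowest IDR signal value of 71.8, and ranked 4428, 3125 and 2240 in the replicates.

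Among the large-subunit genes, 13 of 47 were bound (27.7%, 16.9 to 41.8%), a share close to that of the small subunit. At mRpL41, whose product has no bacterial counterpart, the signal value was 234, 305 and 194.9 in replicates 1, 2 and 3, at ranks 13, 13 and 26, and 727 at pooled rank 14. It was the only bound member with no TSS of another protein-coding gene within 500 bp of the summit, which lay 140 bp upstream of its TSS. At mRpL23, the homologue of a bacterial protein at the exit of the nascent-chain tunnel, the signal value was 199, 229 and 190, at ranks 24, 31 and 32, and 616 at pooled rank 27. Its summit was the only one downstream of the gene's own TSS, by 45 bp, in the 5' UTR, and 95 bp from the TSS of CG9004. Both peaks were in the top 32 of every replicate.

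After these, values dropped by a wide margin here as well. At mRpL34, next to the dystroglycan gene Dg, the signal value was 67.6, 66.3 and 41.3, at ranks 276, 621 and 1263, and 174 in the pooled list. At mRpL53, next to AGO1, the Argonaute of the microRNA pathway, it was 21.9, 65.4 and 43.6, at ranks 2290, 637 and 1121, and 135 when pooled. The annotation gives the gene CG33155 the same TSS as mRpL53, so those genes cannot be told apart. At mRpL24, next to betaggt-I (a subunit of a protein prenylation enzyme), the value was 26.0, 52.1 and 54.4, at ranks 1716, 1013 and 718, and 129 when pooled. At mRpL32, whose neighbour qless makes the side chain of coenzyme Q, it was 27.7, 41.2 and 52.5, at ranks 1527, 1579 and 779, and 121 when pooled. At mRpL21, next to the reptin ATPase gene rept, it was 25.5, 55.3 and 27.6, at ranks 1770, 893 and 2804, and 110 when pooled. The ranks of these genes overlapped from replicate to replicate, so their order among themselves is not established.

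The other 6 bound large-subunit genes had pooled signal values between 83.5 and 108. They were mRpL11 (108), next to the mitochondrial protease gene HtrA2, mRpL37 (106) and mRpL1 (102), next to CG9626. Lower values were found at mRpL47 (97.4), next to CG8176 and the histone demethylase gene Kdm3, at mRpL35 (86.2), next to Mitofilin, which organises cristae, and at mRpL18 (83.5), next to the cardiolipin-remodelling gene Taz. Single replicates stood apart at some of them: mRpL47 ranked 1199 and 1430 in replicates 1 and 2 but 9432 in replicate 3, and mRpL37 ranked 958 and 1595 in replicates 1 and 3 but 3885 in replicate 2.

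**Figure D1:**
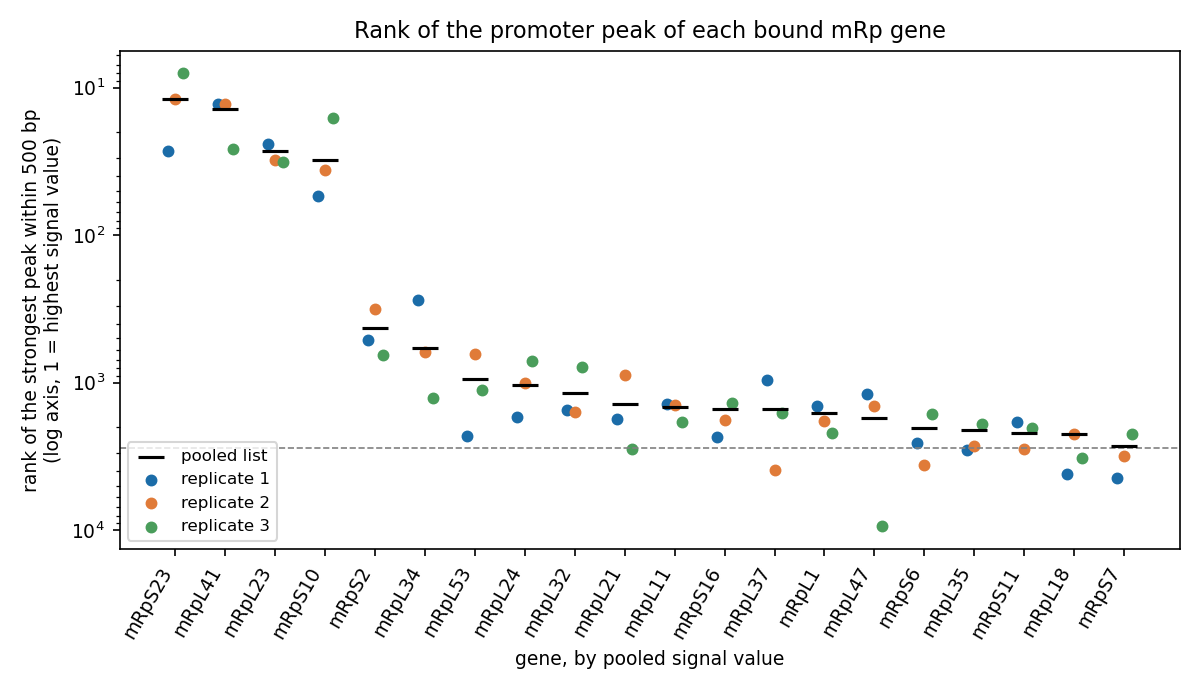
Rank of the strongest peak within 500 bp of a TSS for each of the 20 bound mRp genes, on a log axis with rank 1 at the top; dots are the lists of the 3 replicates, black bars the pooled list, and the dashed line marks rank 2780. The 4 leftmost genes sit between ranks 8 and 54 in every replicate, and the other 16 between ranks 276 and 9432.

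Over the 20 bound members the median pooled signal value was 109 (quartiles 95.2 and 180), against 116 for the 2180 other bound genes, a log2 ratio of -0.09. The upper end differed from the middle: 4 of the 20 members (20%) but 46 of the 2180 other genes (2.11%) had a signal value of 500 or more, a level chosen after the values were seen. The 4 members with such values sat at different genes and on separate peaks, and each is counted by its strongest peak. The peaks of mRpS23, mRpL23 and mRpS10 also lay within 500 bp of CenG1A, CG9004 and Art3. These neighbours are among the 46 other genes, so some peaks count on both sides. The log2 ratio became 0.28 among the 1390 strongest IDR peaks and 0.12 without replicate 1, so the sign of the difference in medians depends on those choices.

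Each of the 20 bound members had a summit within 500 bp in the list of every replicate. The IDR list was itself made from the replicates, so this was largely set by the choice of bound genes. The matching share of other bound genes was not counted. Among the 2780 strongest peaks of a replicate, as many as the IDR list holds, 17, 16 and 17 of the 20 bound members kept a summit in replicates 1, 2 and 3, and 12 did so in all 3. This support of 60% was close to the 61.7% found for other bound genes. Counted without the IDR list, 20, 19 and 20 of the 73 mRp genes had a summit among the 2780 strongest of replicates 1, 2 and 3, a mean of 26.9% ± 0.791 (SD, n = 3), against 15.2% ± 0.545 of other genes. The corresponding shares of all protein-coding genes were 14.6%, 15.6% and 15.4%. The share was above that of other genes in each replicate; the SD is the spread of the same genes over the lists, and the interval of 18.5 to 38.6% gives the counting error over the 73 genes. Requiring all 3 replicates left 12 mRp genes (16.4%), with 9.75% over all protein-coding genes.

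With weaker peaks counted in beside the IDR peaks, summits were also more frequent at members. A summit of any kind, IDR or pooled, lay within 500 bp of 58 of the 73 members (79.5%, 68.8 to 87.1%), against 53.5% of other genes and 53.6% of all. Peaks present in both remaining replicates lay at 52.1% of members without replicate 2 (other genes 31.3%) and at 52.1% without replicate 3 (31.5%). The pooled list runs down to calls with little enrichment (its lowest -log10 q was 0.0177). With -log10 q of 2 or more, 34 members (46.6%) and 24.9% of other genes had a summit, and the share of all protein-coding genes was 25%. Of these 34 members, 14 were found in the pooled list alone. The 38 members found in the pooled list alone had a median signal value of 40.7 (18.2 to 69.98). In 34 of these 38 the summit was upstream of the TSS, as it was in 89.9% of other genes with an IDR summit. The matching shares of other genes in the pooled list alone were not counted, so these numbers are not a trait of the members.

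**Figure D2:**
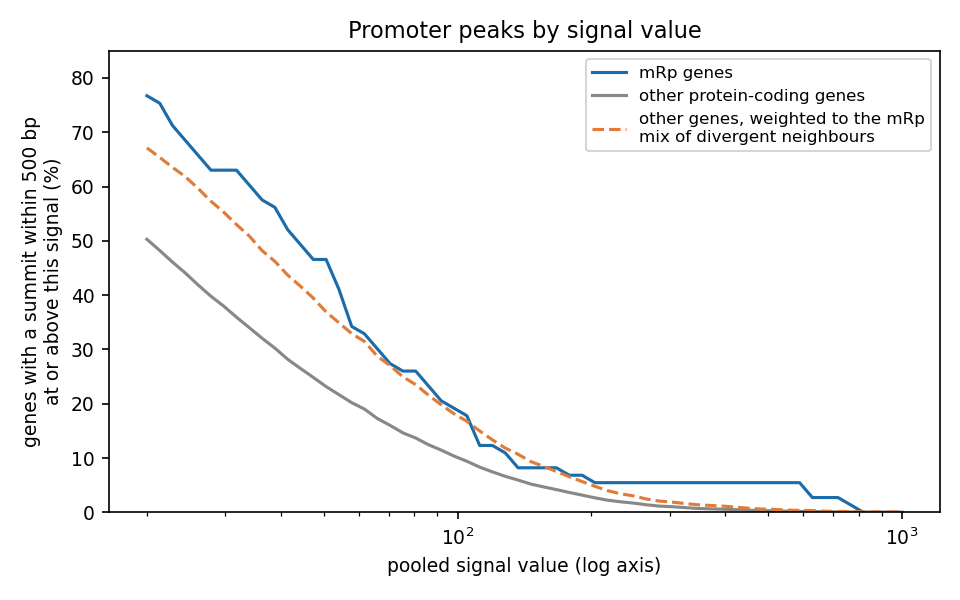
Percent of genes with a pooled summit within 500 bp of a TSS at or above each signal value (log axis), for mRp genes, other protein-coding genes, and other genes weighted to the share of mRp genes with a divergent neighbour. The mRp line lies above that of other genes up to its highest value, 781, is close to the weighted line between signal values of about 71.8 and 200, and is flat from 200 to 594, where no member falls.

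The strongest members outside the IDR list lay directly below its lowest value. They were mRpS21 with a pooled signal value of 69.98, mRpS31 with 69.6, mRpL17 with 65.5, mRpL13 with 62.4 and mRpS24 with 61.0. mRpS21, a homologue of bacterial S21, ranked 2222, 3062 and 4671 in replicates 1, 2 and 3, which overlaps the ranks of the weakest bound members. In all, 8 of the 53 members without an IDR summit were among the 2780 strongest of at least 1 replicate. The matching share of other unbound genes was not counted, so this number is not a trait of the members. The 8 members were mRpS21, mRpS31, mRpS17, mRpS26, mRpS22, mRpL50, mRpL2 and mRpL4. By signal value and rank, bound and unbound members form a continuum around the IDR limit and no gap separates them. No unbound member had an IDR summit between 500 and 1000 bp away. Widening the distance to 1000 bp raised the bound share of other genes only from 15.7% to 17.9%, so this absence is not a trait of the members.

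No pooled summit lay within 500 bp of the TSSs of 15 members, namely mRpS5, mRpS14, mRpS25, mRpS28, mRpS33, mRpS34, mRpS35, mRpL4, mRpL22, mRpL36, mRpL39, mRpL40, mRpL45, mRpL46 and mRpL49. Of these, 12 had a summit in 1 replicate list, and mRpS35 and mRpL40 had none in any. The exception was mRpL4, the homologue of bacterial L4, with a signal value of 34.8 at rank 2108 in replicate 2 and of 27.6 at rank 2792 in replicate 3, and with no summit in replicate 1 or in the pooled list.

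The shares of members and other genes were compared within each gene arrangement. Among genes with a divergent neighbour, 19 of 53 mRp genes (35.8%, 24.3 to 49.3%) and 33.2% of other genes (31.8 to 34.7%) were bound, and 33.3% of all such protein-coding genes. Without a divergent neighbour, 1 of 20 mRp genes (5.00%, 0.888 to 23.6%) and 9.05% of other genes were bound, and 9.04% of all such genes. Weighted to the members' mix of genes with and without a divergent neighbour, a comparison chosen after seeing the data, the other genes' share was 26.6%, against 27.4% for the members. The same weighting within the replicates gave 24.6%, 26.1% and 24.99% for other genes (mean 25.2% ± 0.751, SD, n = 3), against 27.4%, 26.0% and 27.4% for the members. In replicate 2 the values were thus level. With a summit among the 2780 strongest of all 3 replicates required, the weighted share of other genes was 17.3%, above the 16.4% of the members. The order of members and other genes with a divergent neighbour also turned under some settings: 15.1% against 19.5% with the 1390 strongest IDR peaks, 22.6% against 25.3% without replicate 1 and 24.5% against 25.3% without replicate 3. For summits of any kind the weighted share was 69.5%, below the 79.5% of the members, and at -log10 q of 2 or more it was 39.5% against 46.6%, both within the members' intervals of 68.8 to 87.1% and 35.6 to 57.9%. With a divergent neighbour, 48 of 53 members (90.6%) and 79.3% of other genes had a summit of any kind, and 58.5% and 48.3% had one at -log10 q of 2 or more.

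The number of TSSs was also taken into account, since a gene with more TSSs has more chances to lie near a summit. A single TSS was annotated for 67 of the 73 mRp genes (91.8%) and for 73.4% of other genes. Among genes with 1 TSS and a divergent neighbour, 17 of 48 members (35.4%) and 29.1% of other genes were bound. Weighted on both the neighbour and the TSS number, the other genes' share was 23.9%, inside the members' interval of 18.5 to 38.6%. Which of the genes in a divergent pair a peak belongs to cannot be told apart from these lists.

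**Figure D3:**
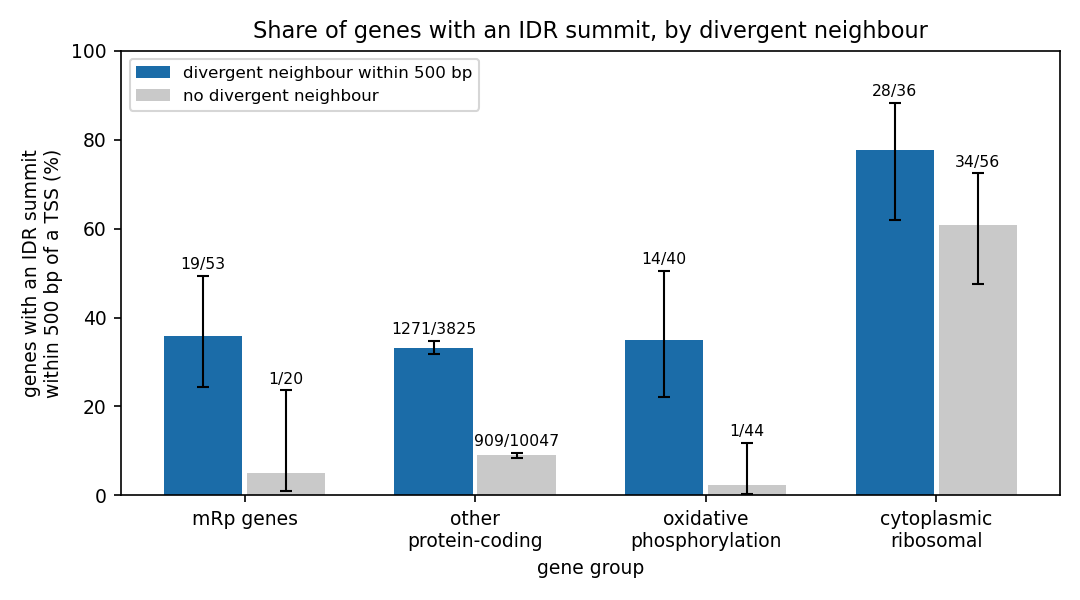
Percent of genes with an IDR summit within 500 bp of a TSS, with (blue) and without (grey) a divergent neighbour, for mRp genes, other protein-coding genes, oxidative phosphorylation genes and cytoplasmic ribosomal protein genes; error bars are Wilson 95% intervals and labels give bound over all genes. The blue bars of mRp genes, other genes and oxidative phosphorylation genes are at 35.8%, 33.2% and 35.0%, and the cytoplasmic ribosomal genes lie higher in both classes.

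At bound members the peak was nearly always shared with another promoter. The summit lay within 500 bp of a TSS of another protein-coding gene in 19 of the 20 (95%, 76.4 to 99.1%), against 60.7% of other bound genes. All 19 had a divergent neighbour (95% of bound members), against 58.3% of other bound genes, so the difference in sharing went together with gene arrangement. In 17 of the 19 the summit fell between both TSSs, against 79.3% of other bound genes with a neighbour on the opposite strand. The exceptions were mRpL23 and mRpL11, whose summits lay beyond 1 of the TSSs and in a 5' UTR. These placements use the IDR summit, and the strongest summits of single replicates fell elsewhere at some genes. At mRpL18, with TSSs 20 bp apart, they were at -91 and -168 bp from its TSS in replicates 1 and 2. At mRpL11, with TSSs 126 bp apart, the summit of replicate 3 was at -45 bp, between both. The IDR summit was nearer to the neighbour's TSS in 11 of the 19 and nearer to the member's own in 8 (42.1%, 23.1 to 63.7%), against 50.7% of other genes. The median distance to whichever TSS was nearer was 60 bp, and 66 bp for other genes. By annotation, 17 summits were intergenic, 2 were in a 5' UTR and 1, at mRpL53, was in an intron.

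Distances to the members' own TSSs were like those of other genes. The median was 118.5 bp for the bound members and 115 bp for other bound genes, and 19 of 20 members (95%) and 89.9% of other genes had the summit upstream. The TSSs of a divergent pair were a median of 264 bp apart for members and 240 bp for other genes. Members were bound in 5 of 18 cases at a gap of 0 to 100 bp, in 5 of 7 above 100 and up to 250 bp and in 9 of 28 above that, and these small classes have wide, overlapping intervals. Their shares were 27.8%, 71.4% (35.9 to 91.8%) and 32.1%, against 29.8%, 33.1% and 34.9% of other genes, so the first and the last class lay near other genes and the middle one holds 7 members.

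**Figure D4:**
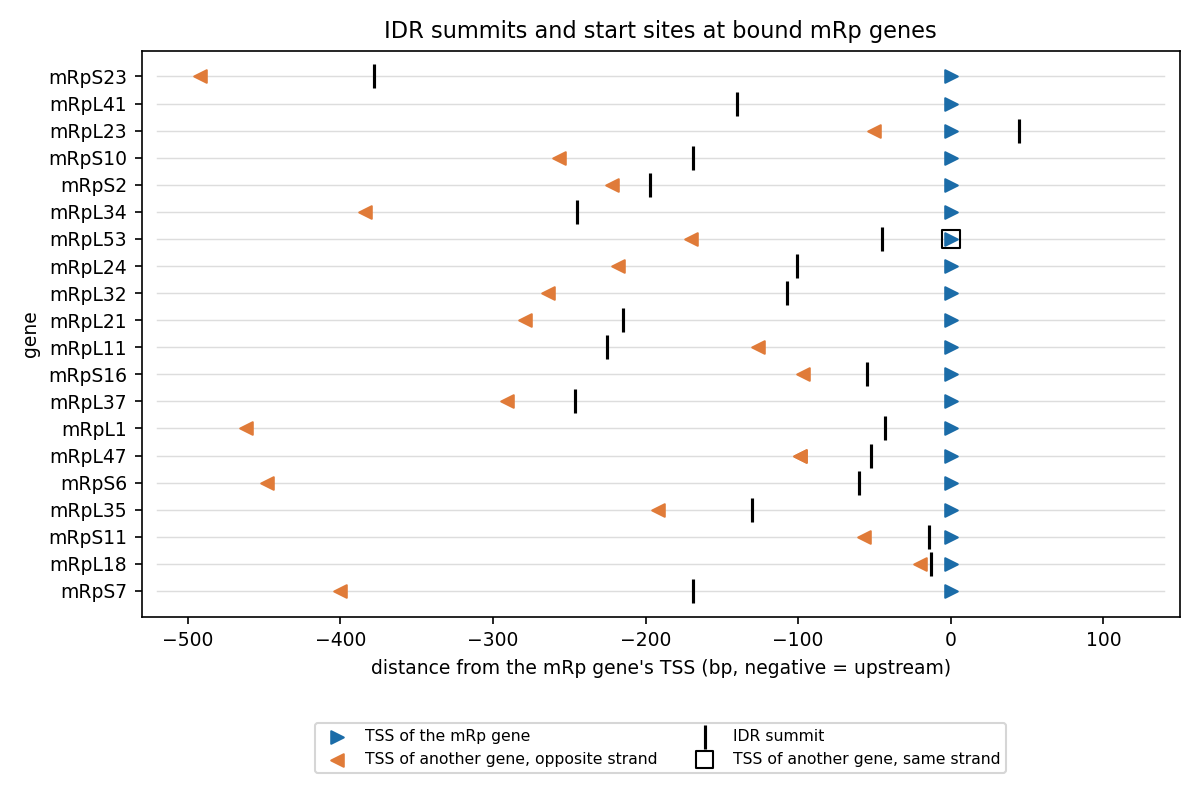
Position of the IDR summit (black bar), the TSS of the mRp gene (blue, at 0) and TSSs of other genes (orange, opposite strand; open square, same strand) for each bound mRp gene, in bp with upstream to the left. In 17 genes the summit sits between the blue and orange TSSs, mRpL23 and mRpL11 lie outside them, and mRpL41 has no other TSS nearby.

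Members with a bacterial counterpart and members of the mitochondrial lineage were compared, a split taken from the numbering of the mammalian proteins. Of the former, 16 of 45 were bound (35.6%, 23.2 to 50.2%), and of the latter 4 of 27 (14.8%, 5.92 to 32.5%), with overlapping intervals, against 15.8% of all protein-coding genes; the latter share was thus near that of all genes. mRpL55 was in neither class. A divergent neighbour was present in 75.6% and 66.7% of them. The 4 bound genes of the mitochondrial lineage were mRpS23, mRpL41, mRpL53 and mRpL37, of which mRpS23 and mRpL41 had the highest signal values of all members; the difference in shares was not tested.

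Along the chromosomes, none of the 11 members on X was bound, which allows a share of up to 27.3% at 3 counts, while 20 of 62 on the autosomes were (32.3%). Other genes were bound at 13.3% on X and 16.2% on the autosomes. A divergent neighbour was present for 7 of the 11 members on X, and 23.7% of other X genes with such a neighbour were bound. The absence holds for genes of this name, since tko, a mitochondrial ribosomal protein gene on X under another name, had an IDR peak. That peak was weak, with a signal value of 73.7 against a lowest IDR value of 71.8, and tko had no summit in the list of replicate 1. Weaker summits were present at 7 of the 11 members on X (63.6%), while 55.1% of other X genes had a summit of any kind. The strongest of the 7 was that of mRpL16 with a pooled signal value of 52.5. On the autosomal arms, 4 of 12 were bound on 2L (33.3%), 5 of 12 on 2R (41.7%), 3 of 17 on 3L (17.6%) and 8 of 21 on 3R (38.1%). The shares of other genes on these arms were 15.5%, 15.1%, 16.3% and 17.7%, so the 3L share lay near that of other genes. The share of other X genes lies below the limit that 0 of 11 allows, so a lower share of members on X cannot be told apart from the small number.

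Short motifs were counted on either strand in promoters, from 250 bp before to 50 bp after the TSS. The DRE, TATCGATA, was present in 15 of the 73 mRp promoters (20.5%, 12.9 to 31.2%), against 8.89% of other promoters and 16.7% of other promoters with a divergent neighbour. Only 2 of the 15, those of mRpS23 and mRpL32, belonged to bound genes (13.3%, 3.74 to 37.9%), against 26.1% of other genes with a DRE. The sequences of mRpL10 and mRpL16 above show such an element without an IDR peak. The 6-mer CGATAG, which can overlap the DRE, was in 27 mRp promoters (37.0%), against 18.99% of other promoters and 30.9% of divergent ones. ACACTG was in 20 (27.4%), against 18.7% and 25.2%. Both 6-mers came from an earlier scan of these data. TATAAA was in 34 (46.6%), against 45.3% of other promoters, and the M1BP element GGTCACAC, bound by a factor found at promoters with paused RNA polymerase, was in 8 (10.96%), against 7.53% of other promoters and 14.1% of divergent ones.

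The ETS core CCGGAA was not more frequent at mRp genes. It was found in 3 of 73 mRp promoters (4.11%, 1.41 to 11.4%) and in 6.75% of other promoters. The longer ETS site CCGGAAGT, which contains the core, was in 0 of 73, which allows a share of up to 4.11%, and in 0.375% of other promoters. Within 100 bp of the summit, 2 of the 20 bound members held the core (10%, 2.79 to 30.1%), against 6.84% of 1622 other promoter peaks. They were mRpS2 and mRpS11. At mRpS2 the core occurred on both strands as TTCCGGAA, from -13 to -6 bp relative to the summit, and is in capitals in the sequence above. At mRpS11 it began 99 bp before the summit. The longer site was in 0 of 20 windows (up to 15% at 3 counts) and in 0.740% of other windows.

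Other motifs in the summit windows were set beside other promoter peaks. The 6-mers ACACTG and CGATAG came from an earlier scan of these data, so their counts here are not independent of it. ACACTG was in 6 of the 20 (30%, 14.5 to 51.9%), against 24.5%. Within 50 bp of the summit it was in 5 (25%, no interval given), against 12.9%. It began 3, 6, 7 and 13 bp after the summit at mRpL53, mRpS11, mRpL1 and mRpS6. At mRpS11 it occurred 3 times. CGATAG was in 6 (30%), against 21.7%, TATAAA in 6 (30%), against 29.5%, M1BP in 2 (10%), against 6.23%, and the DRE in 1 (5.00%), against 9.68%. GC content was lower around the members' summits, with a median of 34.8% against 37.8%, and in their promoters, with 34.6% against 38.2%; its part in the motif counts was not tested. A match is a string of letters, and its absence says nothing of the factor.

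**Figure D5:**
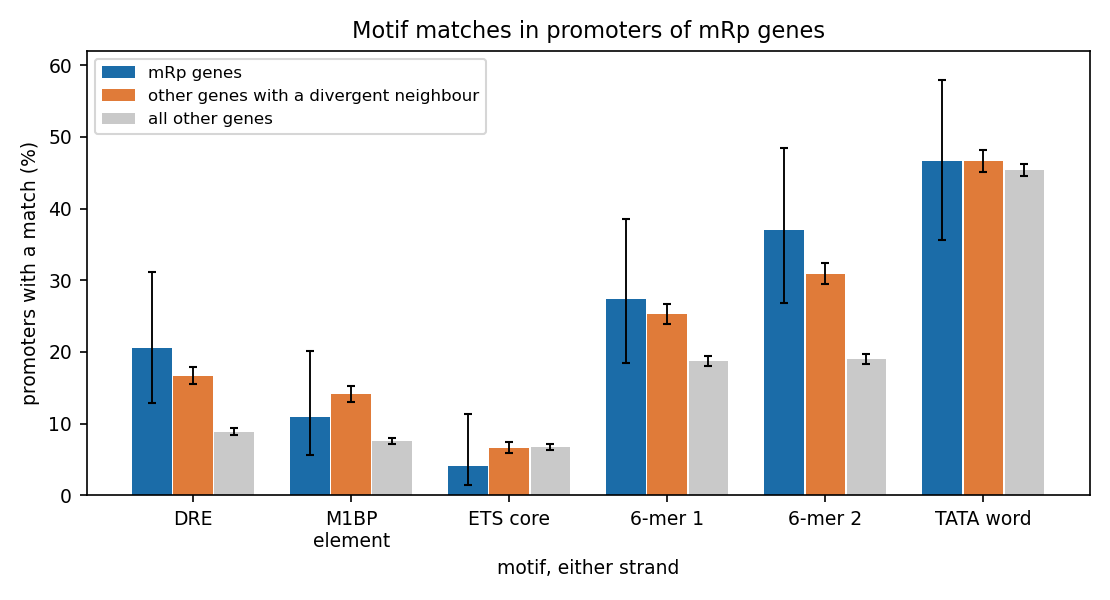
Percent of promoters with a match to each motif on either strand, for mRp genes (blue), other genes with a divergent neighbour (orange) and all other genes (grey), with Wilson 95% intervals; 6-mer 1 is ACACTG and 6-mer 2 is CGATAG. The DRE and both 6-mers are more frequent at mRp genes than at all other genes, and their intervals reach the values of other genes with a divergent neighbour. For ACACTG the interval, 18.5 to 38.6%, also holds the 18.7% of all other genes.

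Genes that work with the mitochondrial ribosome were set beside its proteins. The mitochondrial ribosomal protein genes tko and bonsai, homologues of bacterial S12 and S15 under other names, had an IDR peak with signal value 73.7 and no pooled summit. Of 15 mitochondrial aminoacyl-tRNA synthetase genes, 3 were bound (20%), PheRS-m with a signal value of 103, LeuRS-m with 92.2 and ArgRS-m with 78.8. Of 23 other mitochondrial gene-expression factors found in the annotation, 4 were bound (17.4%). Both shares were near the 15.8% of all protein-coding genes. PNPase, the mitochondrial polynucleotide phosphorylase, had 988, above every mRp gene, and ranked 7, 8 and 6 in the replicates. SLIRP2, of a family of mitochondrial RNA-binding proteins, had 463, the mitochondrial single-strand binding protein gene mtSSB 192 and SLIRP1 76.6.

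Among the genes for the products and the counterpart of the mitochondrial ribosome, 15 of 84 oxidative phosphorylation genes were bound (17.9%, 11.1 to 27.4%), 14 of them among the 40 with a divergent neighbour (35.0%). Both shares were near those of all protein-coding genes, 15.8% in all and 33.3% with a divergent neighbour. Cytoplasmic ribosomal protein genes were bound in 62 of 92 cases (67.4%, 57.3 to 76.1%), an interval above that of the mRp genes. Their share was high with a divergent neighbour (77.8%) and without one (60.7%), where 1 of 20 mRp genes was bound. The intervals of cytoplasmic and mitochondrial ribosomal genes did not overlap in either class: they were 61.9 to 88.3% and 24.3 to 49.3% with a divergent neighbour, and 47.6 to 72.4% and 0.888 to 23.6% without one. Whether the difference was larger in 1 class than in the other was not tested.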

How the data were processed

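Peak lists of the 3 replicates, of the pooled replicates and of IDR peaks, in dm6, were used as deposited; those in dm3 were not used. Per the file headers, the replicate and pooled lists were made by the authors from alignments and a control, and the IDR list from these. Which aligner and caller were used, and at which IDR cut-off, is not given in the sources used here. The deposited signal value is a score, and the deposited q-value is a -log10 q. Tracks, reads and the control were not analysed here, so the depth is unknown.

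TSSs came from Ensembl release 115 (BDGP6.54) and sequence from RefSeq Release 6, the dm6 sequence. Summits were joined to TSSs within 500 bp with Python 3.11.15, numpy 2.4.6 and scipy 1.17.1, and figures were drawn with matplotlib 3.10.9. The joining was tested on simulated data, where 200 of 200 planted summits gave the planted result. Summits planted within 500 bp had to be found at their distance, and those planted farther away had to give no hit. Shares carry Wilson 95% intervals, and no p-values were computed because there is 1 group. The named genes are all bound members, the 5 strongest unbound ones, those without a pooled summit, and bound genes of related lists; 1 of 24 listed factor symbols was absent. Other unbound genes named and the sequences shown were chosen after values were seen. Members and lists were chosen with earlier results of these data known. Alternatives changed the distance, the TSS set, the summit, the IDR threshold, the q-value, the motif window and the replicates. The 1000 bp definition of a divergent neighbour, the weighted shares and the splits by TSS number and arm were added after seeing the data. The neighbour of 1 bound member is not reported here.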

Additional observations from a re-analysis of the deposited data

How the results depend on the processing

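Of 86 alternatives, 68 stayed within the Wilson interval of a share or the replicate SD of a median, and 18 did not, and in all 8 alternatives for the bound share members lay above other genes. The 1390 strongest IDR peaks gave a bound share of 12.3% (other genes 8.60%), 15.1% among divergent genes (other genes 19.5%), a log2 signal ratio of 0.28 and a median distance of 140 bp. Without each replicate in turn, the bound share was 17.8 to 21.9% (other genes 10.7 to 11.7%). The divergent share was 22.6 to 28.3% (other genes 23.5 to 25.3%) and the log2 ratio -0.21 to 0.12. Summits of any kind were found at 52.1 to 71.2% of members without each replicate in turn (other genes 31.3 to 43.9%). They were found at 65.8% within 250 bp (other genes 43.1%) and at 46.6% with -log10 q of 2 or more (other genes 24.9%). Members lay below other divergent genes without replicate 1 (22.6% against 25.3%) and without replicate 3 (24.5% against 25.3%). Support by all 3 replicates became 30% among the 1390 strongest peaks (other genes 34.2%) and 95% among the 5560 strongest (other genes 84.3%). At 1000 bp every bound member shared its peak (100%, other genes 65.5%). With divergent neighbours sought within 1000 bp, chosen after seeing the data, 0 of 15 members without one were bound (0 to 20.4%). The share of other genes without one was 8.12%, inside that interval. At 250 bp mRpS23 was the 1 member lost. Within 50 bp of the summit the DRE was at 0%, CGATAG at 10% and ACACTG at 25% of members' peaks (other peaks 5.98%, 14.3% and 12.9%). The causes of these changes were not tested. No paired analysis was possible because there is 1 group. Depth, unknown here, and the 73 members limit precision.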
